A study of Mus musculus with 8 samples.

Results

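Mitochondrial ribosomes translate the few mRNAs of the mitochondrial genome, which encode core subunits of the respiratory chain and of ATP synthase. Their rRNAs are made inside the organelle, while all of their proteins are encoded in the nucleus, made in the cytosol and imported. The large subunit holds the catalytic centre and binds to the inner membrane, the small subunit decodes the mRNA, and each contains proteins with a bacterial counterpart as well as proteins found only in mitochondria. Neurons depend on oxidative phosphorylation, and inherited defects of mitochondrial ribosomal proteins include diseases of the brain. The genes described here are all those whose mouse symbol is Mrpl or Mrps followed by a number, with or without a final letter a to c, leaving out pseudogenes. By this rule 78 genes were found among the 55487 gene identifiers of the deposited tables, and all 78 had enough reads to be tested.

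The study compared RNA from the dorsomedial hypothalamus (DMH) of mice after knockdown with a short hairpin RNA against Ppp1r17 (shPpp1r17) with RNA from mice after a hairpin against firefly luciferase (shfLuc), a gene mice do not have. Ppp1r17 encodes an inhibitor of protein phosphatases and marks a set of DMH neurons. Each group had 4 libraries, all made from total RNA with isolation and library kits meant for little starting material. Every sample title begins with the letters LMD, a common short form of laser microdissection, followed by DMH. The labels give no strain, age, sex, delivery route or time, and do not say whether the libraries came from separate animals, so a p-value here reflects the variation among the libraries at hand, part or all of which could be technical.

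The libraries held 23070147 to 33907984 estimated reads, and a mitochondrial ribosomal protein gene had 75 to 8557 reads in a library. Ppp1r17 itself had 87.7, 2.07, 3.10 and 87.2 CPM (read counts scaled to a common library size) in shPpp1r17 libraries 1 to 4, against 147, 161, 161 and 171 CPM in shfLuc libraries 1 to 4. The groups did not overlap (log2 fold change -1.83, SE 0.80, edgeR adjusted p = 0.197; exact two-sided permutation p = 0.0286, the lowest value possible with 4 libraries a group). The shPpp1r17 libraries 2 and 3, which kept 1.29% and 1.94% of the shfLuc mean of Ppp1r17, also lay farthest out on the first principal component, which held 32.3% of the variance; libraries 1 and 4 kept 54.8% and 54.5%. Over all genes, the number of edgeR calls depended on single libraries: it was 1050 with all, 310 without shPpp1r17 2 and 196 without shPpp1r17 3. Without both of these it was 37, and DESeq2 called 393. When shfLuc 2 was left out edgeR called 0 genes, with 3309 having an unadjusted p under 0.05 and DESeq2 calling 1137; when shfLuc 3 was left out the counts were 0, 3146 and 1087. Of 10 genes listed as DMH markers, all were detected and tested; 1 fell (Rorb) and the median log2 fold change was -0.39, Ppp1r17 itself included. Without shPpp1r17 2 and 3 that median was -0.07, Rorb did not pass (-0.34, adjusted p = 0.298) and Ppp1r17 did (-0.88, adjusted p = 0.00428); Rorb passed in 2 of 8 runs that each left out 1 library. Among markers of other cells, 3 of 8 microglial, 3 of 3 phagocyte, 3 of 8 oligodendrocyte, 5 of 5 red blood cell and 2 of 2 plasma cell markers rose, while 3 of 10 neuronal markers fell and 1 rose. Of 7 astrocyte markers 2 rose and 1 fell, 1 of 4 endothelial and 1 of 3 tested ependymal or tanycyte markers rose, and 0 of 2 oligodendrocyte precursor markers passed. Without shPpp1r17 2 and 3, edgeR called 1 plasma cell marker and 0 of the markers of the other cells named; the median log2 fold change was then 1.15 for phagocytes (2.42 with all libraries), 0.19 for oligodendrocytes (0.61), 0.32 for microglia (0.44) and 0.74 for red blood cells (0.99). In tissue, fewer cells of a type and less RNA per cell cannot be told apart.

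Promoters of many nuclear genes for mitochondria hold binding motifs of a few general factors. Some of these were looked up here, and the TATA box beside them. In the 250 bases before the annotated start (RefSeq, GRCm38.p6), available for 69 of the 78 genes, both strands were searched and overlapping matches were counted. The core motif of nuclear respiratory factor 1 (NRF1, a regulator of many nuclear genes for mitochondria), GCGCATGC, was present upstream of 8 genes (11.6%), against 4.67% of 11971 tested genes and 2.56% of all 27025 promoters. The ETS motif CCGGAAG, which GABPA can bind, was present upstream of 18 genes (26.1%), against 14.1% of tested genes and 7.83% of all. AAGATGG, the YY1 core, was found upstream of 6 genes (8.7%), against 5% of tested genes and 5.18% of all. TATAAA, the TATA box, was found in 5 (7.25%), against 8.31% of tested genes and 14.3% of all. These shares are descriptions and were not tested. The median log2 fold change in shPpp1r17 was 0.06 in genes with the ETS motif and 0.03 in those without, and 0.05 with the NRF1 motif and 0.03 without. The promoters of 4 genes described later are printed with their matches in capitals, as examples of the NRF1, ETS and YY1 motifs; 120 bases before the start are shown, from 5′ to 3′ on the gene's own strand. Mrpl32 (chr13:14613038-14613157, minus strand) holds NRF1 matches on both strands, of which the pair in the first capital block overlap. A YY1 match of Mrpl32 in the 250 bases searched does not lie within the 120 shown. Mrpl52 (chr14:54426789-54426908, plus strand) holds the YY1 core and an ETS match on the opposite strand. Mrpl43 (chr19:45006443-45006562, minus strand) and Mrpl51 (chr6:125192080-125192199, plus strand) hold ETS matches.
Mrpl32: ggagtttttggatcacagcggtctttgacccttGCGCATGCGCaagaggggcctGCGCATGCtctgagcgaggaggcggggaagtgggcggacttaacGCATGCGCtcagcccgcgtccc
Mrpl52: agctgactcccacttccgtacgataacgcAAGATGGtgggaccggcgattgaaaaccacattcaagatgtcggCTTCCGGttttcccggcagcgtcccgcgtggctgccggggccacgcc
Mrpl43: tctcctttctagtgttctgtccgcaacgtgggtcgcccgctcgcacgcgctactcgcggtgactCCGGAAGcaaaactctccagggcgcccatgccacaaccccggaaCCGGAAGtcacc
Mrpl51: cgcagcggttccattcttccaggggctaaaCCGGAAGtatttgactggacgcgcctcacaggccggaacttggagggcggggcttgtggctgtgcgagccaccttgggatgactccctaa

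The genes spanned a 192-fold range of level, in TPM (transcript abundance scaled to transcript length and library). The median gene had 92.5 TPM; 34 genes had 100 TPM or more and 6 had under 20. Mrpl42, a large-subunit protein found only in mitochondria, was highest and had 543, 493, 471 and 447 TPM in shPpp1r17 libraries 1 to 4, against 430, 496, 553 and 540 TPM in shfLuc libraries 1 to 4, with overlapping groups. Mrps33, a small-subunit protein found only in mitochondria, averaged 426 ± 26.1 TPM in shPpp1r17 and 469 ± 41.5 TPM in shfLuc (SD, n = 4 each), and its groups overlapped. Mrpl33 and Mrps21, whose bacterial counterparts are ribosomal proteins L33 and S21, averaged 413 ± 39.7 and 360 ± 27.3 TPM in shPpp1r17, against 397 ± 40.2 and 382 ± 27.2 TPM in shfLuc. At the low end Mrps24, a small-subunit protein with a bacterial counterpart, averaged 10.02 ± 0.831 TPM in shPpp1r17 and 11.96 ± 1.90 TPM in shfLuc. Mrps30, which by structure belongs to the large subunit despite its name, averaged 2.45 ± 0.278 TPM in shPpp1r17 and 2.73 ± 0.138 TPM in shfLuc. None of these 6 genes passed the test between groups (edgeR adjusted p 0.453 or more). Levels of single genes depend on the annotated transcript length. Of the 78 genes, 33 overlap exons of another gene, 23 of them of a protein-coding one. The overlaps run from 2 bases (Mrpl58) to 4590 (Mrps25). The sources used here do not say whether reads were counted by strand, so reads within the shared bases cannot be told apart.

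**Figure D1:**
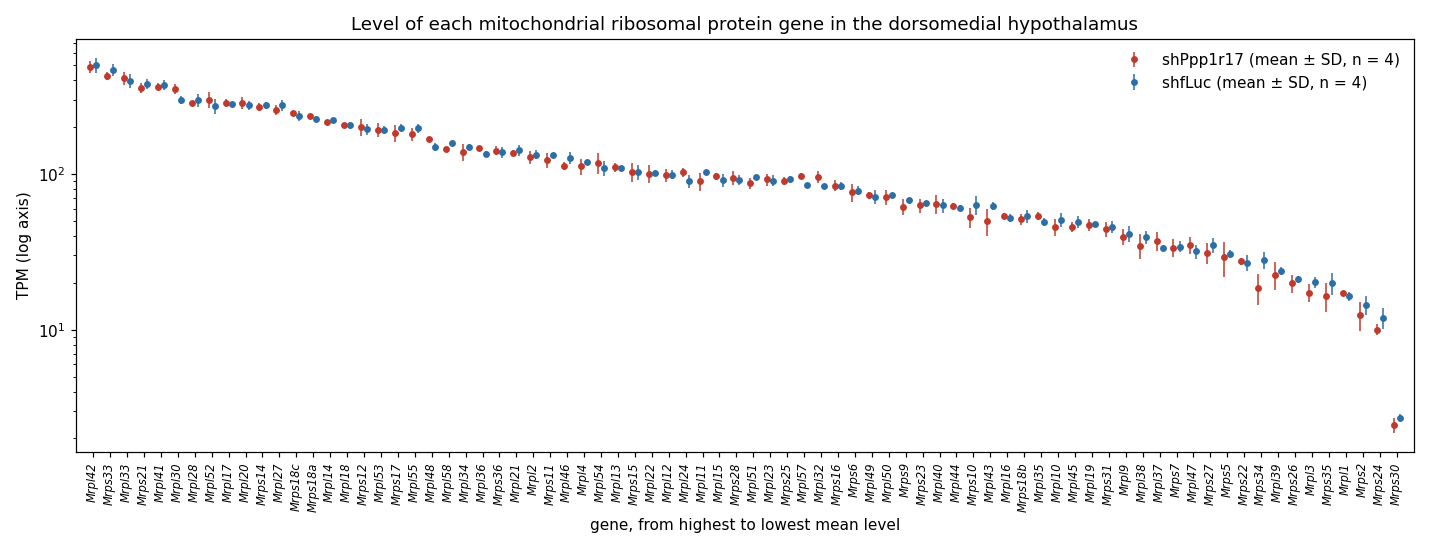
Mean level of each of the 78 genes in TPM (vertical log axis), ordered from highest to lowest, in shPpp1r17 (left point of each pair) and shfLuc (right point); bars are the SD over 4 libraries. The levels run from 496 TPM for Mrpl42 to 2.59 TPM for Mrps30, and the points of the groups lie close together along the whole range.

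None of the genes passed the test, and their estimates were close to 0. By edgeR 0 of the 78 genes passed an adjusted p of 0.05 in either direction, against 6.06% of the 17339 genes tested; DESeq2 called 3 higher and limma on log2(TPM + 1) called 0. At an unadjusted p under 0.05 edgeR gave 11 of the 78 genes (9 higher, 2 lower), against 22.6% of all genes tested. The 95% interval of the fold change lay within 1.5-fold in either direction for 76 of the 78, against 51.6% of all genes; the exceptions were Mrps34 and Mrps24. The median log2 fold change was 0.03, against 0.0043 for all genes tested, and it was -0.04 on log2(TPM + 1) and -0.06 with each library's trend with gene length removed; 50 genes lay above 0, and 69 were under 0.2 in size. The groups did not overlap for 10 genes (9 higher and 1 lower), against 13.9% of all genes; beside the genes described below these were Mrps18a (log2 fold change 0.14), Mrpl17 (0.14) and Mrpl18 (0.09), all of the large subunit. The median SD of log2 CPM within groups was 0.13 in shPpp1r17 and 0.09 in shfLuc, against 0.22 and 0.19 for all genes. The 78 genes were also at a higher level, with a median average log2 CPM of 5.93 against 3.71 for all genes. For 77 nuclear subunits of oxidative phosphorylation (median level 7.92) the SDs were 0.10 and 0.08, and 72 had intervals within 1.5-fold. The part of level in the small SDs and narrow intervals was not tested.

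**Figure D2:**
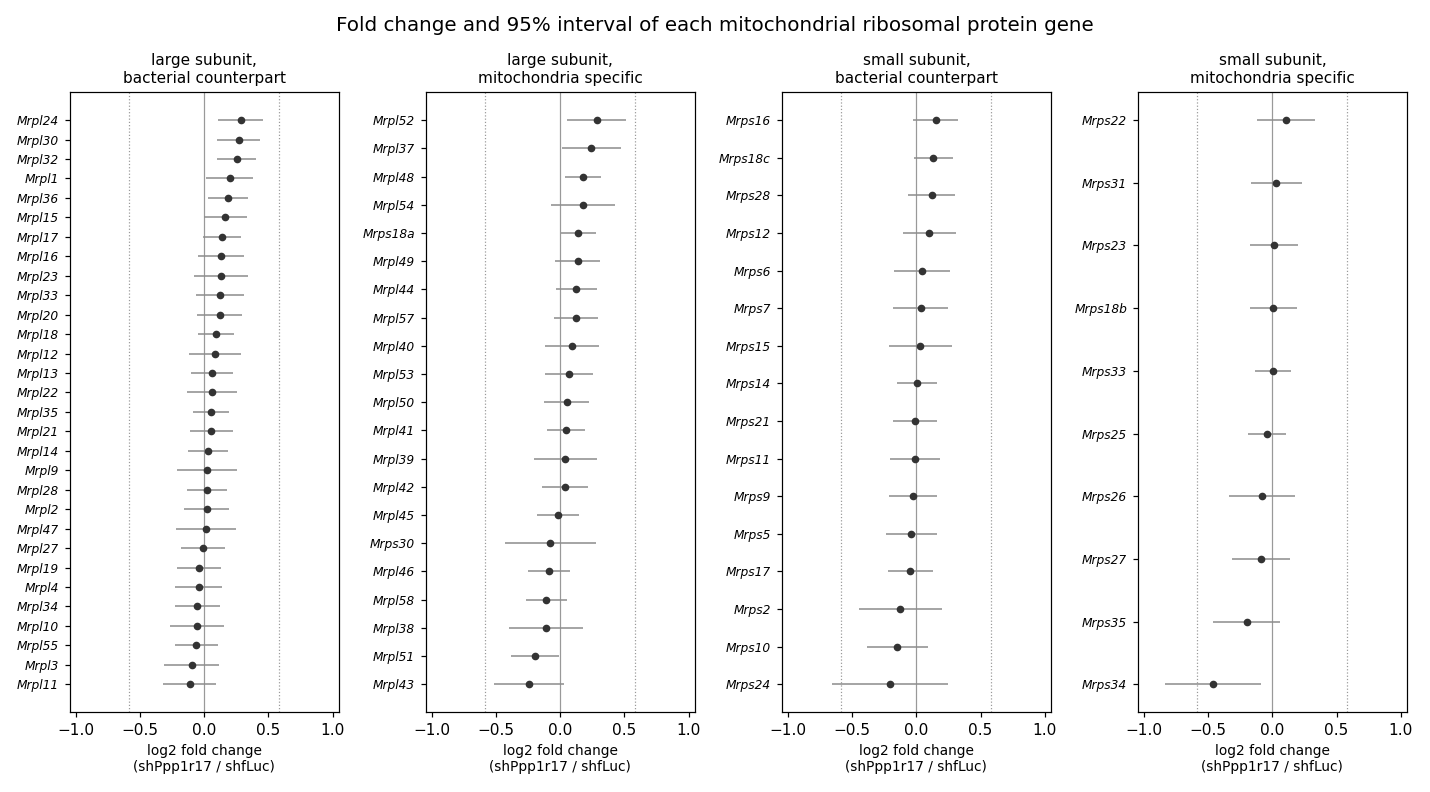
Log2 fold change (shPpp1r17 over shfLuc) of 77 genes, with its 95% interval (horizontal bars), in 4 classes by subunit and by whether a bacterial counterpart exists; Mrps36 is not shown. Dotted lines mark 1.5-fold either way, and the intervals of Mrps34 and Mrps24 alone cross one.

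The 9 genes with an unadjusted p under 0.05 above a fold change of 1 were all among the 51 of the large subunit, which includes Mrps18a and Mrps30 by structure. Without shPpp1r17 2 and 3, which leaves fewer libraries, Mrps12 of the small subunit (0.21) was among those higher at an unadjusted p under 0.05. The others higher were Mrpl32, Mrpl24, Mrpl1 and Mrpl48, and Mrps34 of the small subunit was lower (-0.38). In this run 6 of the 78 genes had an unadjusted p under 0.05, against 2315 of the 18037 genes tested. With all libraries and the length trend removed, those higher were Mrpl24, Mrpl1 and Mrpl32, all of the large subunit. Most of those lower were of the large subunit too (Mrpl58, Mrpl51, Mrpl34, Mrpl43 and Mrpl55), beside Mrps34, Mrps21 and Mrps35 of the small subunit. The large-subunit genes had a median log2 fold change of 0.06 (36 of 51 above 0; -0.04 with the length trend removed), and the small-subunit genes -0.0026 (13 of 26 above 0; -0.09 with the length trend removed). With shPpp1r17 2 and 3 left out the medians were 0.08 in the large subunit (44 of 51 above 0) and 0.08 in the small subunit (20 of 26 above 0). Within the large subunit the median was 0.06 for the 30 genes with a bacterial counterpart and 0.05 for the 21 found only in mitochondria. In the small subunit it was -0.0019 for 16 genes with a bacterial counterpart and -0.02 for 10 without. The ratio of the median large-subunit to the median small-subunit TPM was 1.56, 1.75, 1.69 and 1.57 in shPpp1r17 libraries 1 to 4, against 1.56, 1.39, 1.45 and 1.52 in shfLuc libraries 1 to 4; the lowest shPpp1r17 library (1.564) lay just above the highest shfLuc library (1.560), and the difference between the subunits was not tested. Mrps36, named as a small-subunit protein but now placed in the oxoglutarate dehydrogenase complex, had a log2 fold change of 0.10.

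Of the large-subunit proteins with a bacterial counterpart, Mrpl32, which is matured by the m-AAA protease before it joins the ribosome, had 63.1, 61.8, 64.3 and 68.9 CPM in shPpp1r17 libraries 1 to 4, against 55.6, 54.0, 52.7 and 54.2 CPM in shfLuc libraries 1 to 4. All shPpp1r17 libraries lay above all shfLuc libraries (log2 fold change 0.25, SE 0.07, edgeR adjusted p = 0.0512). Mrpl30, with a bacterial counterpart as well, had 130.5, 154, 160 and 145 CPM in shPpp1r17 libraries 1 to 4, against 121, 117, 126 and 126 CPM in shfLuc libraries 1 to 4 (0.27, SE 0.08, adjusted p = 0.0576). Mrpl24, whose bacterial counterpart starts assembly of the large subunit, had 82.2, 82.8, 95.2 and 93.4 CPM in shPpp1r17 libraries 1 to 4, against 66.7, 78.96, 72.4 and 72.8 CPM in shfLuc libraries 1 to 4 (0.28, SE 0.08, adjusted p = 0.0587). The groups of both genes did not overlap either. These 3 genes passed in DESeq2 (adjusted p 0.0188 for Mrpl30, 0.0209 for Mrpl32 and 0.0231 for Mrpl24), where 6.02% of the genes with an adjusted p were called higher. Without shfLuc 2 DESeq2 called only Mrpl24, and without shfLuc 3 it called 0 of the 78. It also called 0 without shPpp1r17 2 and 3, with log2 fold changes of 0.29 for Mrpl32 (adjusted p = 0.107), 0.27 for Mrpl24 (0.167) and 0.17 for Mrpl30 (0.390).

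The other named genes of the large subunit above a fold change of 1 were Mrpl48 (central protuberance; log2 fold change 0.18), Mrpl52 (found only in mitochondria; 0.28), Mrpl36 (bacterial L36; 0.18), Mrpl1 (the stalk that leads tRNA out; 0.20) and Mrpl37 (found only in mitochondria; 0.24), at adjusted p 0.126 to 0.204. Mrpl48, Mrpl36 and Mrpl1 did not overlap between groups. Mrpl37 was at 0.05 without shPpp1r17 2 and 3, and with the length trend removed Mrpl52 was at 0.04, Mrpl36 at 0.07, Mrpl48 at 0.11 and Mrpl30 at 0.11. Mrpl48 overlaps Rab6a by 708 exonic bases on the opposite strand and has a pseudogene, and Mrpl24 overlaps Rrnad1 by 594 bases.

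Below a fold change of 1, Mrps34, a small-subunit protein found only in mitochondria and needed for a stable small subunit in mice, had 9.77, 5.94, 10.99 and 9.61 CPM in shPpp1r17 libraries 1 to 4, against 11.8, 12.5, 11.9 and 13.9 CPM in shfLuc libraries 1 to 4. It was lower in every shPpp1r17 library (log2 fold change -0.46, SE 0.17, adjusted p = 0.132), and it was the only gene of the 78 whose groups did not overlap downward. Its exons overlap Mapk8ip3 by 1309 bases on the opposite strand and Nme3 by 763 on the same strand. Mrpl51, of the large subunit and found only in mitochondria, had 81.6, 70.1, 69.4 and 87.2 CPM in shPpp1r17 libraries 1 to 4, against 93.1, 89.0, 85.4 and 85.9 CPM in shfLuc libraries 1 to 4 (-0.20, SE 0.09, adjusted p = 0.199). The groups of Mrpl51 overlapped through shPpp1r17 4. Mrpl43 (-0.24), Mrps35 (-0.20), Mrpl58, a peptidyl-tRNA hydrolase built into the large subunit (-0.11), Mrps10 (-0.15), Mrpl11 at the base of the GTPase stalk (-0.11) and Mrpl46 (-0.09) followed, at adjusted p 0.270 to 0.536, all with overlapping groups. In the absence of shPpp1r17 2 and 3, Mrpl51 was at -0.07, Mrpl43 at -0.06, Mrpl58 at -0.06, Mrps10 at -0.04, Mrpl46 at -0.04 and Mrpl11 above 0 at 0.03, while Mrps34 was at -0.38 (adjusted p = 0.308).

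**Figure D3:**
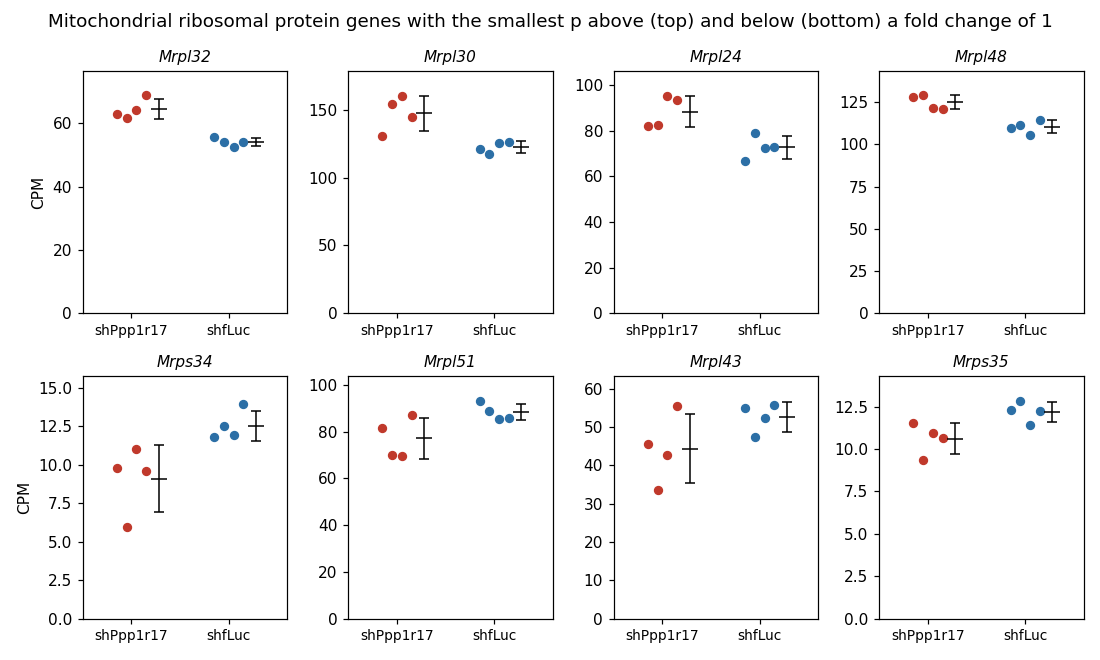
CPM in each library (points; shPpp1r17 left, shfLuc right) for the 4 genes with the smallest p above (top) and below (bottom) a fold change of 1; black marks are the mean and SD over 4 libraries. The top genes do not overlap between groups, and in the bottom row Mrps34 alone does not.

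Fold changes varied with gene length. The correlation across genes between log2 fold change and log2 length was -0.20 over the 78 genes and -0.18 over all genes tested (genes are not independent). The median log2 fold change was 0.08 for 22 genes under 800 bases, 0.01 for 38 in between and 0.0021 for 18 of 1500 bases or more; over all genes it was 0.17, 0.06 and -0.02. With each library's length trend removed, the median of the 78 turned to -0.06 with 23 genes above 0, and 0 passed. At an unadjusted p under 0.05, 3 were then higher (Mrpl24, Mrpl1, Mrpl32) and 8 lower, against 10.5% of all genes lower. Those lower included Mrps34 (-0.57), Mrpl51 (-0.25) and Mrpl58 (-0.24).

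The proteins of the cytosolic ribosome, which translates the nuclear mRNAs, gave more calls and larger fold changes. Of 79 cytosolic genes 70 rose, 0 fell and 9 did not pass, with a median log2 fold change of 0.61. With the length trend removed 57 rose, 0 fell and the median was 0.45. Rpl6 (0.74), Rpl13a (0.69), Rps19 (0.88) and Rps7 (0.81) had the smallest p with all libraries and no trend removed. Without shPpp1r17 2 and 3, 9 passed in edgeR and 59 in DESeq2, and the median was 0.38 in edgeR; 42 passed without shPpp1r17 3 and 41 without shfLuc 4, and 0 without shfLuc 2 or shfLuc 3, where DESeq2 called 71 and 70. The summed CPM of cytosolic over mitochondrial ribosomal protein genes was 6.36, 8.64, 9.20 and 6.37 in shPpp1r17 libraries 1 to 4, against 5.72, 4.97, 4.799 and 4.74 in shfLuc libraries 1 to 4. The 78 genes took 0.551% ± 0.0193 of reads in shPpp1r17 and 0.535% ± 0.00462 in shfLuc (SD, n = 4 each), and their summed TPM was 9892 ± 385 in shPpp1r17 and 9988 ± 340 in shfLuc. Per library, their median log2 level relative to the shfLuc mean was 0.08, -0.05, 0.02 and 0.11 in shPpp1r17 libraries 1 to 4, while that of the cytosolic genes was 0.40, 0.72, 0.88 and 0.40. In the small subunit it was 0.05, -0.14, -0.09 and 0.13, lowest in libraries 2 and 3. In these libraries the 3 phagocyte markers (Lyz2, Cd68, Gpnmb), none of them at 0, were also highest: they summed to 54.3, 232, 160 and 41.2 CPM in shPpp1r17 libraries 1 to 4 and to at most 32.4 CPM in every shfLuc library. The 8 oligodendrocyte markers, none at 0, summed to 1305 to 2300 CPM in shPpp1r17 and to 1265 to 1315 CPM in shfLuc. The microglial and plasma cell markers also summed highest in shPpp1r17 2 and 3. These libraries kept the least Ppp1r17 as well. The median relative log2 level of the 10 DMH markers, Ppp1r17 included, was -0.11, -0.72, -0.89 and 0.02 in shPpp1r17 libraries 1 to 4. The part of these cells and of the knockdown depth in the small-subunit and cytosolic values was not tested. Without shPpp1r17 2 and 3 the median of the 78 genes was 0.08, with 65 above 0 and 0 past the threshold.

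**Figure D4:**
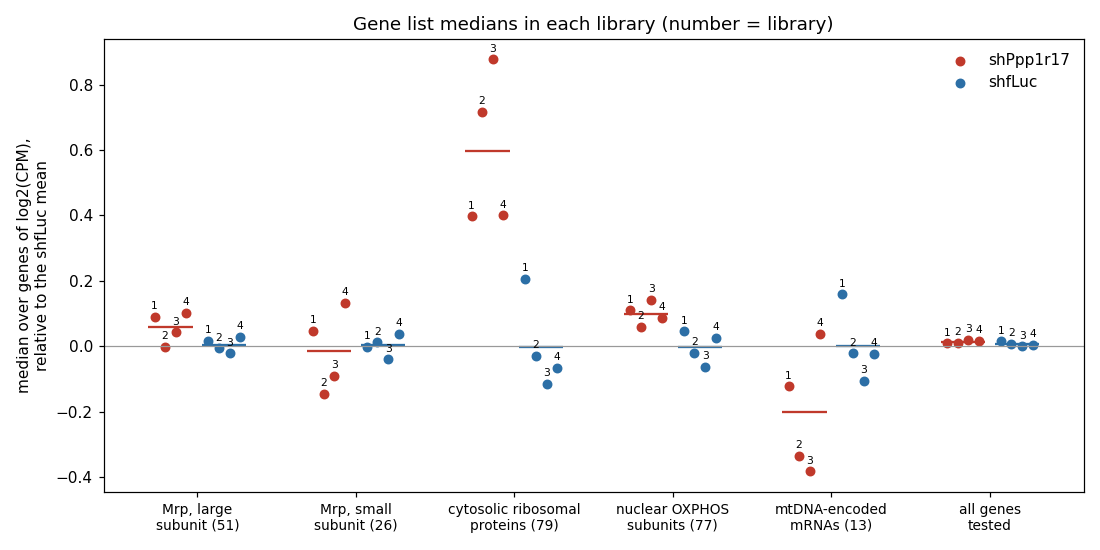
Median over genes of log2 CPM relative to the shfLuc mean (vertical axis) in each library for 5 gene lists and all genes; red points are shPpp1r17, blue points shfLuc, numbers name the library and lines are means over 4 libraries. Cytosolic ribosomal protein genes lie highest in shPpp1r17 2 and 3, where small-subunit genes lie lowest.

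Other genes of mitochondrial translation gave few calls. Of 5 mitoribosome proteins under other names 0 passed in edgeR, Chchd1 being at 0.17, Ptcd3 at -0.20, Gadd45gip1 at -0.15 and Aurkaip1 at 0.03. Of 26 assembly and rRNA modification genes 1 fell, Fastkd2, which binds the rRNA of the large subunit. Fastkd2 had 40.6, 30.3, 35.1 and 38.2 CPM in shPpp1r17 libraries 1 to 4, against 51.5, 46.5, 47.0 and 45.8 CPM in shfLuc libraries 1 to 4 (log2 fold change -0.40, SE 0.10, adjusted p = 0.0291), without overlap. It passed in 2 of 8 runs that each left out 1 library, those without shPpp1r17 1 or 4, and did not pass without shPpp1r17 2 and 3 (-0.28, adjusted p = 0.245). Ngrn (0.31), Ybey (-0.47) and Eral1 (-0.34), all with roles in mitochondrial rRNA or ribosome assembly, did not pass. Of 16 genes listed as translation factors 0 passed in edgeR or DESeq2 (Mtif2 -0.24, Guf1 -0.26, Tufm -0.21, and the RNA-binding protein Slirp, not itself such a factor, 0.14). Of 20 mitochondrial tRNA synthetases 0 passed in edgeR (Wars2 0.53, Tars2 -0.30, Ears2 -0.55, Iars2 0.21). DESeq2 called Wars2 higher (adjusted p = 0.0190) and Ears2 lower (0.0494), and Wars2 also passed in edgeR with the length trend removed (0.0480). Of 14 transcription and RNA processing genes Grsf1, a protein of mitochondrial RNA granules, fell (-0.41, SE 0.11, adjusted p = 0.0435; also in 2 of 8 such runs, and -0.21 without shPpp1r17 2 and 3), and Polrmt (-0.31), Tfam (-0.15) and Mtpap (-0.23) did not pass. The median log2 fold change was 0.02 for the proteins under other names, -0.08 for assembly, -0.05 for translation factors, 0.06 for tRNA synthetases and -0.09 for RNA processing; without shPpp1r17 2 and 3 the first was -0.0020 and the last 0.0079.

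Of the RNAs these proteins work with, 1 of 2 rRNAs and 2 of 13 mRNAs fell in edgeR. The rRNA of the large subunit, mt-Rnr2, had 13400, 11000, 9992 and 8932 CPM in shPpp1r17 libraries 1 to 4, against 17080, 15990, 14820 and 14950 CPM in shfLuc libraries 1 to 4, and it fell (log2 fold change -0.54, SE 0.10, adjusted p = 0.0129). The rRNA of the small subunit, mt-Rnr1, did not pass in edgeR (-0.20, SE 0.06, adjusted p = 0.0699), though its groups did not overlap. It passed in DESeq2 (adjusted p = 0.0343), in edgeR with the length trend removed (0.0228), and in limma on log2(TPM + 1), which called both rRNAs lower. Of 13 mitochondrially encoded mRNAs 2 fell, mt-Nd4l (-0.56) and mt-Nd2 (-0.50), and 11 did not pass, among them mt-Atp8 (-0.25) and mt-Nd4 (-0.33). The median was -0.18, and all 13 lay below 0. DESeq2 called 4 lower, and with the length trend removed edgeR called 3 lower with a median of -0.33. Per library their median log2 level relative to the shfLuc mean was -0.12, -0.34, -0.38 and 0.04 in shPpp1r17 libraries 1 to 4. Without shPpp1r17 2 and 3, 0 of the mRNAs and 0 of the rRNAs passed in edgeR (1 and 1 in DESeq2), with medians of -0.03 and -0.35. The calls on mt-Rnr2 and mt-Nd4l were lost without shPpp1r17 3, shfLuc 2 or shfLuc 3, and that on mt-Nd2 in 6 of 8 runs that left out 1 library. Of 77 nuclear subunits of oxidative phosphorylation 7 rose and 1 fell (median 0.10), among them Cox7a2l (0.58), Ndufc2 (0.38), Uqcrh (0.45) and Ndufa11 (0.27). With the length trend removed their median was -0.03, with 1 higher and 3 lower. Cox7a2l and Ndufc2 passed in 6 of 8 runs that left out 1 library, Uqcrh and Ndufa11 in 3 of 8, and without shPpp1r17 2 and 3 edgeR called 0 of the 77, where DESeq2 called 3 higher and 1 lower. Spg7, a subunit of the m-AAA protease that matures the Mrpl32 protein, was chosen after its values were seen. It averaged 5.54 ± 1.48 CPM in shPpp1r17 and 11.4 ± 1.25 CPM in shfLuc (SD, n = 4 each), did not overlap between groups and fell (-1.04, SE 0.19, adjusted p = 0.0126). It passed in 6 of 8 runs that left out 1 library. It did not pass without shPpp1r17 2 and 3 (-0.75, adjusted p = 0.106), nor without shfLuc 2 or shfLuc 3, where edgeR called 0 of all genes.

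**Figure D5:**
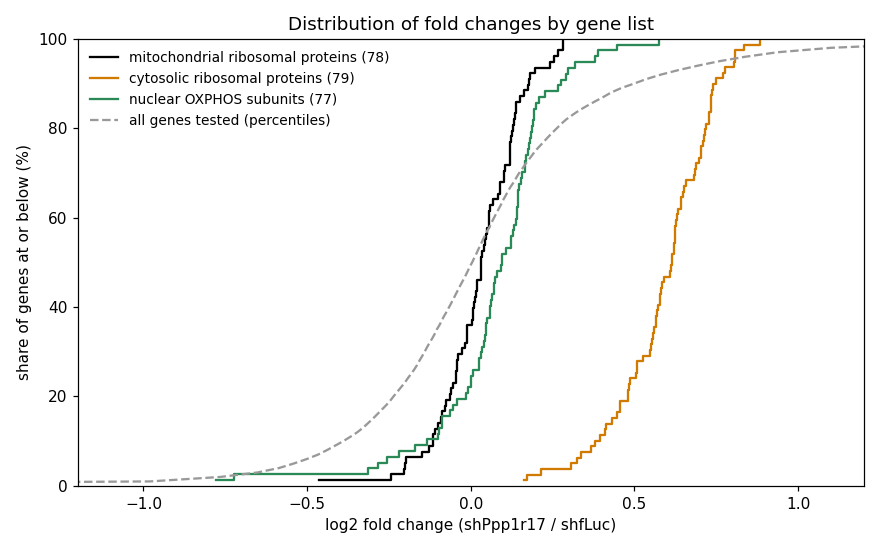
Share of genes (vertical axis, percent) at or below each log2 fold change (horizontal axis) for 3 gene lists and, dashed, for all genes tested. The 78 mitochondrial ribosomal protein genes rise steeply around 0, within -0.46 and 0.28, while the cytosolic genes all lie above 0.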

How the data were processed

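RNA-seq libraries of mouse DMH were deposited as one gene table each. Per the file headers each gene has a length and an effective length, a TPM value and an estimated count. The deposited expected counts were rounded to whole numbers, the TPM values deposited by the authors were used for levels and in an alternative, and the effective length deposited by the authors as an offset in another. Tools listed in the submitters' processing notes are DRAGEN, bcl2fastq, limma and edgeR, with no version and no stated role. The build, annotation and alignment settings were not given in the sources used here. Symbols were matched for 55141 of 55487 identifiers.

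The test was edgeR's quasi-likelihood test (4.0.16, R 4.3.3) with TMM factors, its filter (minimum count 10, total 15), the group as single term, and Benjamini-Hochberg adjustment over 17339 genes. SEs and intervals come from the fold change and its F statistic. CPM values were computed with the TMM factors. Length and GC trends were removed per library with a loess fit (span 0.5) used as an offset. DESeq2 1.42.0 and limma 3.58.1 (pseudocount 1) were alternatives, and the code was tested on simulated data. Counts of PCR reads are not independent molecules. Named were the 8 genes with the smallest p in each direction, the 4 highest and 2 lowest in TPM, the 4 largest and 4 smallest fold changes with the length trend removed, and up to 4 genes with the smallest p in each other list. Marker genes were taken from lists. Members, lists and tests were chosen with earlier results of these data known. Overlaps come from GENCODE M21.

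No library pair of a group agreed within sampling noise (chi-square per degree of freedom 7.10 to 37.0).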

Additional observations from a re-analysis of the deposited data

Results flagged for a closer look

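Mrpl33, a large-subunit protein with a bacterial counterpart, had 85.07 CPM in shPpp1r17 library 4, while the other shPpp1r17 libraries lay between 103 and 106 CPM and the shfLuc libraries had 83.9, 88.2, 94.0 and 99.1 CPM. The gap to its nearest neighbour took 0.847 of the group's range, above Dixon's critical value for 4 libraries. Chance alone gives about 1 such case in 20 groups, and 50 groups were examined. The gene did not pass the test (log2 fold change 0.12, adjusted p = 0.453).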

How the results depend on the processing

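Of the 78 genes, 0 passed in either direction with RLE factors, library totals, no count filter, the length trend removed, the length and GC trend removed, or limma on log2(TPM + 1), log2(TPM + 0.1) and without a filter (where limma called 0 of all genes, as edgeR did without shfLuc 2 or 3). DESeq2 gave 3 higher, the effective length offset 1 (Mrpl30), and DESeq2 gave 1 without shfLuc 2 and 0 without shPpp1r17 2 and 3; the length and GC trend and the DESeq2 runs with fewer libraries were added after seeing the data. Leaving out 1 library gave 0 to 2 higher (Mrpl30 and Mrpl24 without shPpp1r17 1) and a median of 0.0139 to 0.0662. The median log2 fold change was 0.0825 without shPpp1r17 2 and 3 (0.0861 in DESeq2), and it turned below 0 with the length trend (-0.0621) or the length and GC trend removed (-0.0564) and on log2(TPM + 1) (-0.0398, also without a filter) or log2(TPM + 0.1) (-0.0400). With the replicate block, 0 of the 78 genes passed and the median was 0.0284. Same-numbered libraries correlated at -0.0116, 0.0354, 0.00569 and 0.116 in their deviations from the group means. The labels do not say whether equal numbers pair libraries, and these correlations cannot decide it. Of 22 named genes 17 kept their sign in every setting, and Mrps33, Mrpl42, Mrps21, Mrpl11 and Mrpl33 did not. Most of the 22 were named for a small p in these same data, which favours a steady sign. Apart from Mrpl11, those that changed sign were named for their high level. The 95% intervals were widest for Mrps24 and Mrps34, both of low read count, and for these a 1.5-fold fall lay within the interval.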
